A study of Mus musculus with 24 samples.

Results

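A set of 8 genes of hepatic fatty acid and lipoprotein uptake was followed in mouse liver after loss of the growth hormone (GH) receptor from hepatocytes. They were chosen by name and role, with earlier results of these data known, and stand in the table as CD36, VLDLR, LPL, LIPC, FABP1, FABP4, SLC27A2 and SLC27A5, which is 8 of 20879 coding features and of 75794 features in all. Loss of the receptor went with higher Cd36 and Vldlr, at deposited ratios of 2.90 and 2.98, and with lower Lipc. The most abundant members, Fabp1, Slc27a2 and Slc27a5, were not called, nor were Lpl and Fabp4, at 10.5 and 7.24 TPM in Control. Vldlr was the lowest member, at 0.374 TPM in Control. With 1 TPM added to each group, its TPM ratio was 1.55 for receptor loss and 0.768 for active STAT5b over receptor loss alone. With rat IGF1 supplied, none of the 8 was called, in a comparison in which 0.00622% of all detected features were called higher and the same share lower. With active STAT5b supplied, Vldlr fell to a ratio of 0.577 (p = 0.000191), whereas Cd36 was not called, at a ratio of 0.920 (p = 1, both in the authors' deposited table).

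All 24 mice carried floxed Ghr alleles (GHRfl/fl) on the C57BL/6 strain, were on a chow diet, were 10 to 12 weeks old when injected, and gave liver 7 days after 1 tail vein injection of adeno-associated virus (AAV8). There were 4 groups of 6 mice. Every vector drove its cargo from the thyroxine-binding globulin promoter, a hepatocyte promoter, so other liver cells kept the receptor gene. Control mice received 3.5 doses of an empty (Null) vector, where 1 dose here stands for 1e+11 genome copies. aHepGHRkd mice received Cre recombinase at 1.5 and Null vector at 2.0. aHepGHRkd_rIGF1 mice received the same Cre dose with a rat IGF1 vector at 2.0 and no Null vector. aHepGHRkd_STAT5bCA mice received Cre, a constitutively active mouse STAT5b at 0.75 and Null vector at 1.25, by the stated total of 3.5. Samples are labelled male, although the treatment protocol speaks of both sexes. The labels give Hepatocyte as the cell type, but the source is whole liver.

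Long-chain fatty acids enter hepatocytes with the help of the membrane protein CD36 and the fatty acid transport proteins, and are carried in the cytosol by fatty acid binding proteins. The transport proteins also join fatty acids to coenzyme A, which keeps them in the cell. Triglyceride in circulating lipoproteins is split by lipoprotein lipase and hepatic lipase, and remnants are taken up by lipoprotein receptors. In liver, GH signals mainly through the transcription factor STAT5b, and the IGF1 that hepatocytes secrete depends on it.

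The table holds 1 TPM value per group (transcript abundance per length, scaled to the same total in each group), a ratio between groups and a p for each comparison, all made by the authors. It gives no value for a single mouse, so no spread between mice, interval or test of this work's own accompanies a value, and the depth per library is unknown. A gene was called higher or lower where the deposited p, read as adjusted over the whole table, was under 0.05. Both supplied groups are compared with the same aHepGHRkd group, which is also compared with Control. An unusual aHepGHRkd group would therefore move all 3 comparisons. The receptor gene Ghr was at 180 TPM in Control and between 49.4 and 58.4 in the Cre-treated groups, with a ratio of 0.302 for aHepGHRkd over Control (p = 9.99e-61, the authors' deposited table). In bulk liver, fewer cells of a type and less RNA per cell cannot be told apart.

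The sequences around an annotated start of transcription are shown for the 3 called members and for Fabp1, the most abundant one, because STAT5-type and nuclear receptor elements are among the known inputs to genes of this pathway. Each window holds 250 bases before the start and 50 after it, from RefSeq on GRCm38.p6, read on the gene's strand. The search covered TTCNNNGAA, the STAT5-type palindrome, and AGGTCA, a nuclear receptor hexamer read as TGACCT on the other strand. Capitals mark the hexamers. Lipc and Vldlr have 2 annotated starts each. Both Lipc windows are shown because they differ in matches, and 1 of the Vldlr windows, which both lack them. RefSeq windows were found for 5 of the 8 members: Cd36, Vldlr, Lipc, Fabp1 and Slc27a2.
Cd36, chr5:17835847-17836146, minus strand: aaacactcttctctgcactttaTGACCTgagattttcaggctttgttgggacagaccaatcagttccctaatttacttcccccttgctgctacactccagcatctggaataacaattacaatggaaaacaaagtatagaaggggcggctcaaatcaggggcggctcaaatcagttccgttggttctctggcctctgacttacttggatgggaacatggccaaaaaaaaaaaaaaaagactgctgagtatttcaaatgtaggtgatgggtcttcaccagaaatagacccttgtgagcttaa
Vldlr, first of its windows, chr19:27216234-27216533, plus strand: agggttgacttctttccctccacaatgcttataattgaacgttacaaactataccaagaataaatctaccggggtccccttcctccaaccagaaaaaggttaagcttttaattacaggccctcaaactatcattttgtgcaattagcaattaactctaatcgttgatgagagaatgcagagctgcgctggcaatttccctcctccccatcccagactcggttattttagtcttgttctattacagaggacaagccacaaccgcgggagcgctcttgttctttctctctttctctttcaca
Lipc, first of its windows, chr9:70952172-70952471, minus strand: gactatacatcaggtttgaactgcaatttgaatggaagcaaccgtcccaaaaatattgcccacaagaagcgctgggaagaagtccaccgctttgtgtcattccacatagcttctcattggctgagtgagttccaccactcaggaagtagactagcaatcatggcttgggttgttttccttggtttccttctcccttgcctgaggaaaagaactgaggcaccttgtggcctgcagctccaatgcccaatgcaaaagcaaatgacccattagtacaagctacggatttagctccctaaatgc
Lipc, second of its windows, chr9:70934759-70935058, minus strand: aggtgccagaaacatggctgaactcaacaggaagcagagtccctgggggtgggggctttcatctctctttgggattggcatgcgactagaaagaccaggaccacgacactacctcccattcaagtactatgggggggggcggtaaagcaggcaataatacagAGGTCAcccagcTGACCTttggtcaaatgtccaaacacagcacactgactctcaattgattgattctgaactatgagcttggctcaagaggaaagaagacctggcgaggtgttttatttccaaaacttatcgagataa
Fabp1, chr6:71199629-71199928, plus strand: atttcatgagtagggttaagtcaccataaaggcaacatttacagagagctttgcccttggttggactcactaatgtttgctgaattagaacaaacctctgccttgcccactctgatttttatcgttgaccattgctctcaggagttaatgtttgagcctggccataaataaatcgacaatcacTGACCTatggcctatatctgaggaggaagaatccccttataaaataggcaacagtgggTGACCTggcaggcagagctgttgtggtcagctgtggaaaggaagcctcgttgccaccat
None of the 7 windows of the 5 genes held TTCNNNGAA, which was found in 8.30% of all 32851 windows. AGGTCA was found in 16.3% of all windows and in the Cd36, Fabp1 and Slc27a2 windows and the second Lipc window, which lies downstream of the first. The Cd36 window held 1 hexamer, starting 228 bases before the start of transcription. The second Lipc window held 2, starting 88 and 76 bases before it and facing in opposite directions. The Fabp1 window held 2, starting 67 and 9 bases before it. Neither Vldlr window held one, nor did the first Lipc window. A match is a description of letters in the window, and a missing match says nothing of sites elsewhere.

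**Figure D1:**
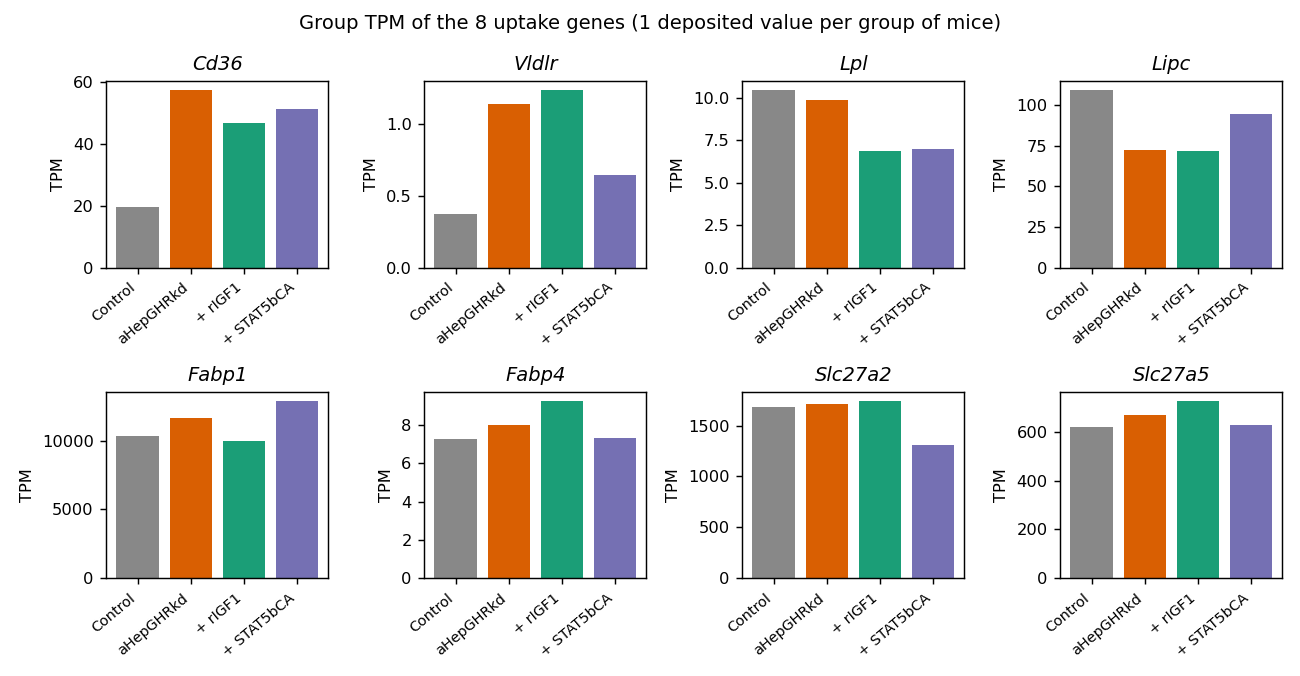
Bars give the deposited TPM of each of the 8 genes in Control, aHepGHRkd, aHepGHRkd with rIGF1 and aHepGHRkd with STAT5bCA, 1 value per group of 6 mice, each panel with its own axis from 0. Cd36 and Vldlr are lowest in Control, Lipc is highest there, and Slc27a5 varies least, with its highest value 1.18 times its lowest.

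Levels spanned a wide range. Fabp1, the main cytosolic fatty acid binding protein of hepatocytes, took 1.03% of all TPM in Control, where it ranked 8 among coding features. Slc27a2 (FATP2) ranked 74 and Slc27a5 (FATP5) 193 there, and Slc27a2 was 2.73 times Slc27a5 in TPM. Lipc, hepatic lipase, was 10.4 times Lpl, the lipase that most other tissues use. Cd36 was 52.5 times Vldlr in Control, and Vldlr, at 0.374 TPM and rank 11958, was the lowest member. Fabp1 exceeded Fabp4, the binding protein of adipocytes and macrophages, 1422 times. These are group values with no spread, so the order of close neighbours such as Fabp4 and Lpl was not tested.

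Setting aHepGHRkd against Control asks how these genes respond when hepatocytes lose the GH receptor. Of the 8 members, 2 were called higher and 1 lower, and 5 were not called. Among all detected features 1.03% were called higher and 1.81% lower, and among coding features 2.06% and 2.42%. The members' median log2 ratio was 0.11, beside 0.03 over detected coding features (the authors' deposited table). The members were chosen with earlier results known, so these counts describe them.

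Cd36 (mm9 chromosome 5, 17287508 to 17394777, minus strand, 17 exons) encodes the scavenger receptor and fatty acid translocase. Its level was 19.6 TPM in Control and 57.4 in aHepGHRkd, with 46.9 after rIGF1 and 51.3 after STAT5bCA. Control was thus the lowest group, and the 3 Cre-treated groups lay above it. The deposited ratio of aHepGHRkd over Control was 2.90 (p = 9.58e-08, the authors' deposited table). Its rank among coding features went from 3674 in Control to 1672 in aHepGHRkd. Of 2473 coding genes within 2-fold of its level, 0.687% had as large a fold in either direction. All genes of that band with as large a fold were called.

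Vldlr (mm9 chromosome 19, 27290974 to 27328721, plus strand, 20 exons) encodes the very low density lipoprotein receptor, which in healthy liver is scarce and binds apolipoprotein E on triglyceride-rich particles. Its level was 0.374 TPM in Control, 1.14 in aHepGHRkd, 1.23 after rIGF1 and 0.640 after STAT5bCA. The groups fell into an order with Control lowest, STAT5bCA between, and the other groups highest. The deposited ratio of aHepGHRkd over Control was 2.98 (p = 5.60e-07, the authors' deposited table). Of 1892 coding genes within 2-fold of its level, 2.22% had as large a fold, and 10 of those were not called. The smallest fold called in that band was 1.52 (the authors' deposited table). With 1 TPM added to each group, the TPM ratio was 1.55 for Vldlr and 2.83 for Cd36.

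Lipc (mm9 chromosome 9, 70645935 to 70800028, minus strand, 10 exons) encodes hepatic lipase, which hydrolyses triglyceride and phospholipid of remnants and HDL in the liver sinusoid. The 4 levels were 109 TPM in Control, 72.0 in aHepGHRkd, 71.8 after rIGF1 and 94.2 after STAT5bCA. Control was the highest group. The deposited ratio of aHepGHRkd over Control was 0.655 (p = 0.00103, the authors' deposited table), and folds down to 1.26 were called among the 1327 coding genes within 2-fold of its level.

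The other lipase, Lpl (mm9 chromosome 8, 71404454 to 71430831, plus strand, 10 exons), which is scarce in adult hepatocytes, had 10.5 TPM in Control, 9.86 in aHepGHRkd, 6.86 after rIGF1 and 7.00 after STAT5bCA. Its ratio of aHepGHRkd over Control was 0.929 (p = 1, the authors' deposited table). The supplied groups were both lower than the rest, and neither difference from aHepGHRkd was called.

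The binding proteins were not called. Fabp1 (mm9 chromosome 6, 71149873 to 71155028, plus strand, 4 exons) had 10295 TPM in Control, 11607 in aHepGHRkd, 9939 after rIGF1 and 12897 after STAT5bCA. Its ratio for the knockdown was 1.12 (p = 1, the authors' deposited table). All groups lay within 1.30-fold of each other. Only 17 coding genes were within 2-fold of its level, and the smallest fold called among them was 1.38 (the authors' deposited table). The fold of Fabp1 itself was smaller than that. Fabp4 (mm9 chromosome 3, 10204343 to 10208616, minus strand, 4 exons) stood at 7.24, 7.97, 9.26 and 7.33 TPM in the same order of groups, with a ratio of 1.10 for the knockdown (p = 1, the authors' deposited table). Of the 6 adipocyte markers, Lep was listed at 0 in every group. Adipoq, Plin1 and Retn were at 0.103, 0.130 and 0.0898 TPM in Control, were listed at 0 in aHepGHRkd, and were at 0.175, 0.00969 and 0.160 after rIGF1, where Fabp4 was also highest, and at 0.00971, 0.0145 and 0.0122 after STAT5bCA. Cfd was at 2.54, 0.395, 0.770 and 0.340 TPM in the order of groups above, and Cidec, which hepatocytes can also express, at 13.6, 20.6, 18.95 and 12.6. The part of adipocyte transcripts in the Fabp4 values was not tested.

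Neither fatty acid transport protein was called in any comparison. Slc27a2 (mm9 chromosome 2, 126378760 to 126413979, plus strand, 10 exons), which activates long-chain and very long-chain fatty acids, stood at 1687 TPM in Control, 1717 in aHepGHRkd, 1745 after rIGF1 and 1310 after STAT5bCA. Slc27a5 (mm9 chromosome 7, 13573695 to 13583541, minus strand, 10 exons), which also activates bile acids for conjugation, had 618, 667, 727 and 625 TPM in that order. Their ratios for the knockdown were 1.01 and 1.06 (p = 1 for both, the authors' deposited table). Among coding genes within 2-fold of their levels, the smallest folds called were 1.31 for Slc27a2 and 1.30 for Slc27a5 (the authors' deposited table).

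**Figure D2:**
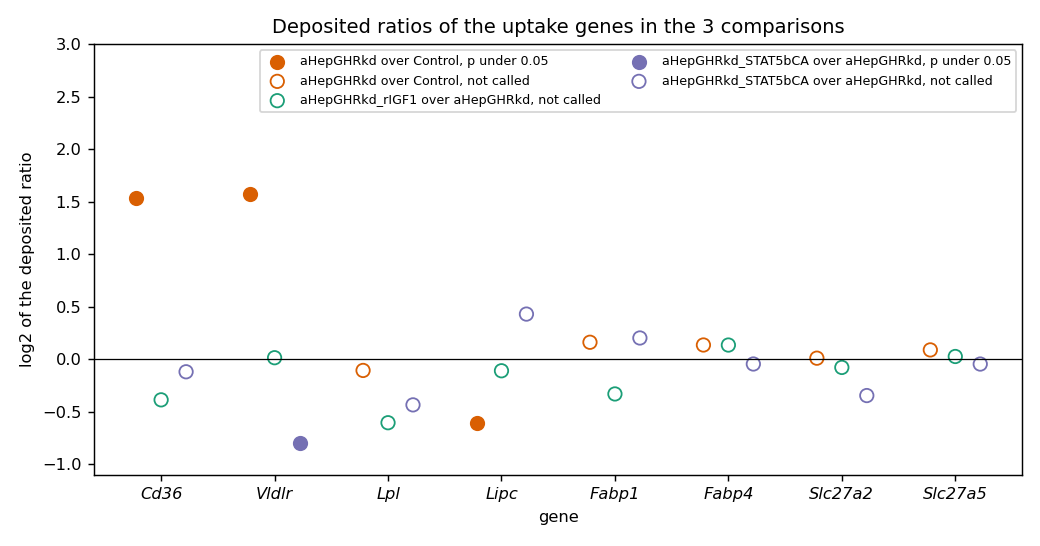
Points give the log2 of the deposited ratio of each gene in the 3 comparisons, filled where the deposited p was under 0.05. The filled points are Cd36, Vldlr and Lipc for aHepGHRkd over Control and Vldlr for aHepGHRkd_STAT5bCA over aHepGHRkd, and all points of the rIGF1 comparison are open.

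Markers of other cell types were read beside the called members. Cd36 is also expressed by macrophages and endothelial cells. None of 8 macrophage markers was called for the knockdown, and their summed level went from 58.6 TPM in Control to 73.6 in aHepGHRkd, 71.5 with rIGF1 and 76.2 with STAT5bCA. Like Cd36, this sum was lowest in Control, with a smaller spread, but its genes did not all move alike. Cd5l went from 18.4 TPM in Control to 25.8 in aHepGHRkd, Clec4f from 20.8 to 24.6 and Marco from 5.54 to 9.16. Adgre1, Trem2 and Gpnmb were also higher there, whereas Vsig4 (7.47 to 7.37) and Cd68 (4.95 to 4.75) were slightly lower. None of 7 endothelial markers was called, with sums of 51.3, 54.7, 61.2 and 53.0 TPM. None of 5 stellate cell markers was called either, with sums of 56.2, 53.7, 83.4 and 50.5 TPM. Dcn made up most of each stellate sum, at 49.8, 46.7, 71.9 and 44.4 TPM. Of 6 adipocyte markers, only Cfd was called, lower at a ratio of 0.156 (p = 0.00137, the authors' deposited table). Their sums were 16.5, 20.97, 20.1 and 12.96 TPM. Cidec, which hepatocytes can also express, made up most of each sum, at 13.6, 20.6, 18.95 and 12.6 TPM. Adipoq, Plin1, Retn and Cfd were lower in aHepGHRkd than in Control, and Lep was listed at 0 in both. Alb, the albumin gene of hepatocytes, lay between 66647 and 86393 TPM in the 4 groups. Of the 5 hepatocyte markers Alb, Apoa1, Cps1, Ttr and Tat, only Ttr was higher (1.38-fold, p = 0.00386) and only Tat lower (ratio 0.683, p = 0.0482, the authors' deposited table). The part of other cell types in the Cd36, Vldlr and Lipc values was not tested.

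Other genes of fatty acid and lipoprotein handling were read from 6 lists. Of 42 detected genes outside the members, 2 were called higher, 2 lower and 38 were not called for aHepGHRkd over Control. The largest fold was that of Fabp5, an epidermal-type fatty acid binding protein that liver also makes, which fell from 82.8 to 4.12 TPM (ratio 0.0499, p = 2.22e-38, the authors' deposited table). No other binding protein outside the members was called. None of the 4 other fatty acid transport protein genes Slc27a1, Slc27a3, Slc27a4 and Slc27a6 was called, and none of the 6 genes of the acyl-CoA synthetase list, with Acsl5 at a ratio of 1.26 (p = 0.0741, the authors' deposited table).

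Among 9 lipoprotein receptors and proteins that act on them, Lsr, the lipolysis-stimulated lipoprotein receptor, fell from 116 to 85.7 TPM (ratio 0.733, p = 0.00554, the authors' deposited table). Among 10 regulators of lipases, the inhibitor Angptl8 rose from 38.2 to 66.7 TPM (1.76-fold, p = 0.0444), and Apoc2, the cofactor of lipoprotein lipase, rose from 465 to 737 TPM (1.57-fold, p = 0.0002, both in the authors' deposited table). Of 8 regulators of uptake genes none was called. Ppara, Pparg and Ahr had ratios of 1.23 (p = 0.408), 1.20 (p = 1) and 1.49 (p = 0.0800) in the authors' deposited table. The rest of that list were Nr1h3 at 1.10, Nr1i2 at 0.910, Hnf4a at 0.979, Ppargc1a at 1.15 and Stat5b at 1.24.

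**Figure D3:**
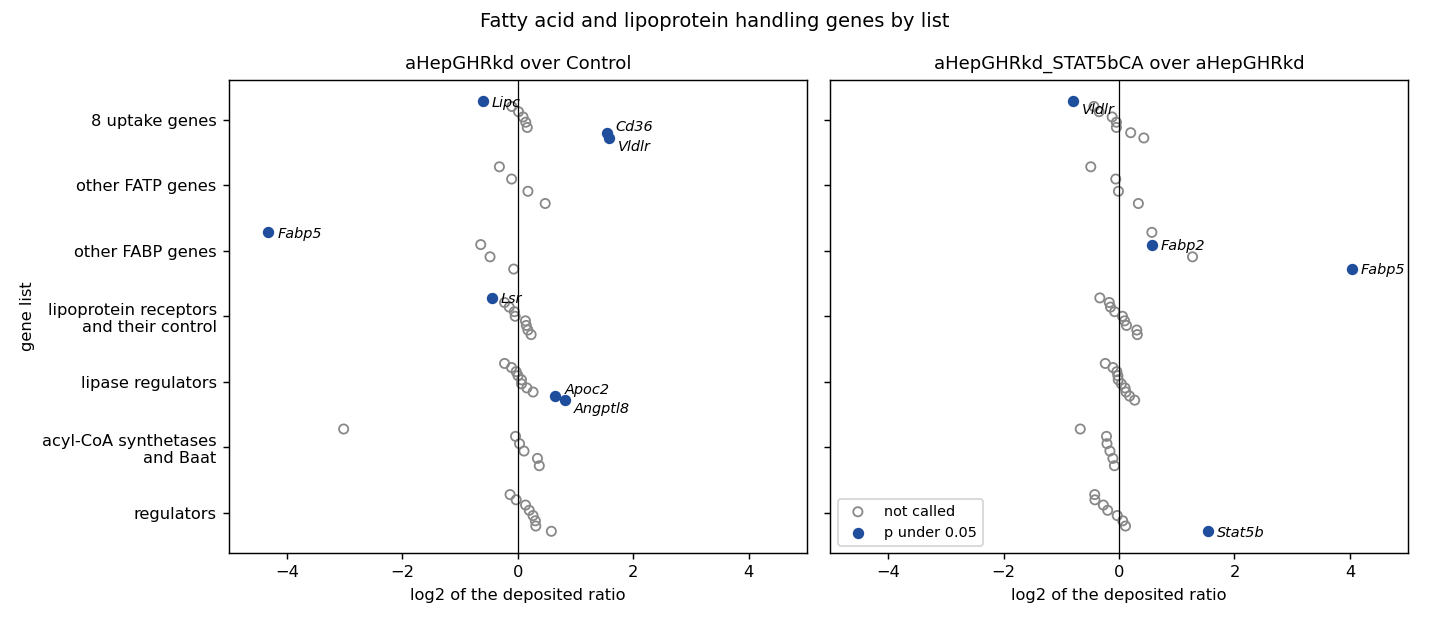
Each point is 1 gene listed above 0 in both groups, by list, at the log2 of its deposited ratio for aHepGHRkd over Control (left) and aHepGHRkd_STAT5bCA over aHepGHRkd (right), filled where the deposited p was under 0.05. Fabp5 lies far to the left in the first panel and far to the right in the second, while Cd36 is filled in the first panel and open in the second.

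Setting aHepGHRkd_rIGF1 against aHepGHRkd asks which of these genes respond to IGF1 made by Cre-treated hepatocytes. None of the 8 members was called higher or lower by the authors' edgeR values, and all 8 had a deposited p of 1. The table gives no unadjusted p. Calls were rare throughout, at 0.00622% of detected features higher and 0.00622% lower, and 0.0% and 0.0121% of coding features. The members' median log2 ratio was -0.09, beside 0.00 over coding features.

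Vldlr had a ratio of 1.01 with rIGF1 and Cd36 one of 0.765 (p = 1 for both, the authors' deposited table). Both stayed above Control in TPM, at 3.29 times for Vldlr and 2.39 times for Cd36, ratios of group TPM with no test. The Lipc ratio was 0.927 and its level 0.657 times that of Control. Lpl had the lowest ratio of the members, 0.658 (p = 1, the authors' deposited table). Of 3878 coding genes within 2-fold of its level, 0.619% had as large a fold, 24 genes, and none of them was called. The remaining ratios were 0.795 for Fabp1, 1.10 for Fabp4, 0.947 for Slc27a2 and 1.02 for Slc27a5 (p = 1 for each, the authors' deposited table).

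The aHepGHRkd_rIGF1 group stood apart in transcripts of skeletal muscle. The summed level of Ckm, Acta1, Myh1 and Mb was 8.03 TPM there, beside 0.0840 in Control, 0.0194 in aHepGHRkd and 0.0886 in aHepGHRkd_STAT5bCA, and none of the 4 was called (Acta1 p = 0.101, the authors' deposited table). Fabp3, the binding protein of muscle and heart, went with it, at 0.0648, 0.0416, 1.17 and 0.118 TPM in the 4 groups, and Slc27a6, known in heart, at 0.0112, 0.0169, 0.107 and 0.0107. Neither was called. Lpl, which muscle also makes, was at its lowest in that group. The part of these transcripts in the members' values was not tested. Of 41 detected list genes outside the members, none was called.

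Setting aHepGHRkd_STAT5bCA against aHepGHRkd asks which of these genes respond to active STAT5b once Ghr is reduced. Of the 8 members none was called higher and 1, Vldlr, was called lower. Among detected features 1.62% were called higher and 0.282% lower, and among coding features 2.24% and 0.515%. The median log2 ratio of the members was -0.08, beside 0.00 over coding features (the authors' deposited table).

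Vldlr fell to a ratio of 0.577 (p = 0.000191, the authors' deposited table). Its level of 0.640 TPM was 1.71 times that of Control. With 1 TPM added to each group, its TPM ratio to aHepGHRkd was 0.768. Of 1983 coding genes within 2-fold of its level, 6.86% had as large a fold, and 76 of those were not called. Cd36 had a ratio of 0.920 (p = 1, the authors' deposited table) and remained at 2.61 times Control in TPM. The 2 genes, with deposited ratios of 2.90 for Cd36 and 2.98 for Vldlr in the knockdown, had unequal ratios with STAT5bCA, but a test of the difference between genes cannot be made from group values. Lipc had a ratio of 1.35 that was not called (p = 0.122, the authors' deposited table), and stood at 0.863 times Control. Folds down to 1.30 were called among the 1452 coding genes within 2-fold of its level, a smaller fold than that of Lipc. Of these genes, 7.09% had as large a fold as Lipc, and 41 of those were not called.

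Slc27a2 had a ratio of 0.787 (p = 0.0963) and Lpl one of 0.740 (p = 1), and neither was called in the authors' deposited table. Slc27a2 was the highest-ranked transport protein in every group, and ranked 92 with STAT5bCA beside 73 in aHepGHRkd. Fabp1 had a ratio of 1.15, Fabp4 one of 0.969 and Slc27a5 one of 0.969 (p = 1 for each, the authors' deposited table).

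Outside the members, 3 of 41 detected list genes were called higher with STAT5bCA and none lower. Fabp5 rose from 4.12 to 65.1 TPM (16.4-fold, p = 1.09e-34, the authors' deposited table), beside 82.8 TPM in Control and 3.30 with rIGF1. Fabp2, the intestinal-type binding protein that mouse liver also makes, rose from 116 to 167 TPM (1.49-fold, p = 0.0466, the authors' deposited table). The third was Stat5b itself, from 10.6 to 30.02 TPM (2.91-fold with p = 2.98e-39 in the authors' deposited table), a value to which the mouse transgene adds its own reads. Angptl8, Apoc2 and Lsr, called for the knockdown, had ratios of 0.986, 0.930 and 1.24 with STAT5bCA (p = 1, 1 and 0.460, the authors' deposited table).

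**Figure D4:**
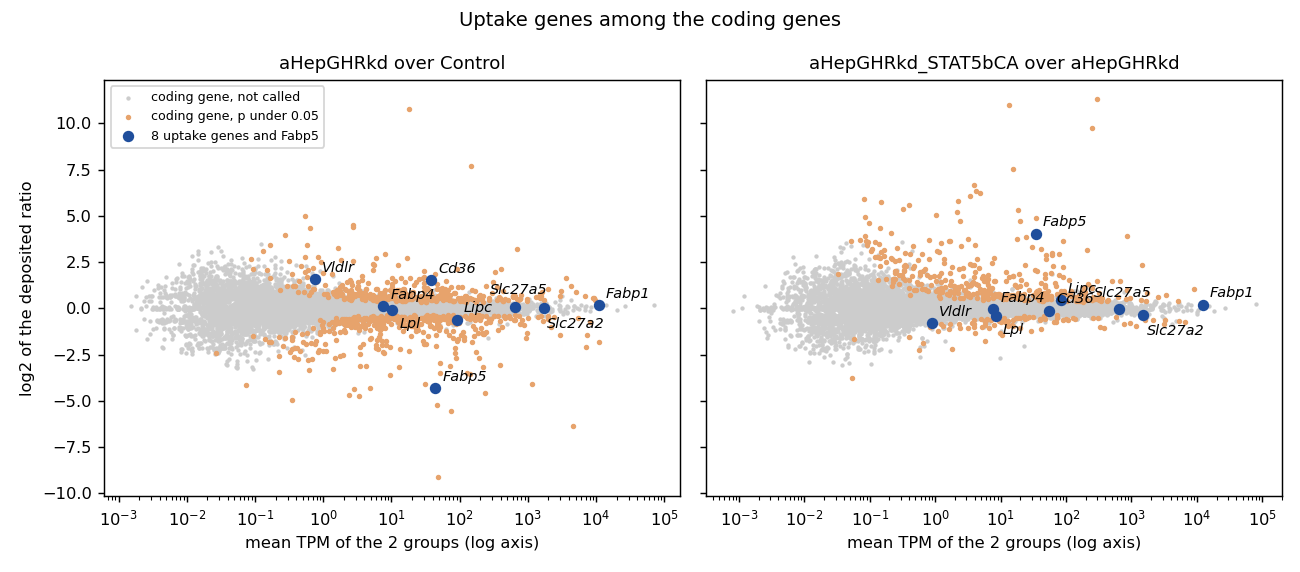
Each point is a coding gene listed above 0 in Control, aHepGHRkd and aHepGHRkd_STAT5bCA, at the mean TPM of the groups compared (log axis) and the log2 of the deposited ratio, with the 8 uptake genes and Fabp5 in blue. Of coding genes within 2-fold of the level of Cd36, 0.687% had as large a fold for the knockdown, in either direction. For Vldlr that share was 2.22%. Only Vldlr among the members is called for STAT5bCA.

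For each called member, the 3 coding genes with the most similar ratios over the 3 comparisons were taken from 7954 genes that reached 5 TPM in a group, by Euclidean distance between log2 ratios. The likeness rests on 3 ratios that share the aHepGHRkd group. Nearest to Vldlr was Bcl6, a transcriptional repressor (distance 0.15), at 6.03 TPM in Control, 16.6 in aHepGHRkd, 17.9 after rIGF1 and 9.83 after STAT5bCA. Its ratios were 2.74 for the knockdown (p = 3.35e-08) and 0.610 with STAT5bCA (p = 7.37e-06) in the authors' deposited table, called in both like Vldlr. Il1rn (0.35) and Arrdc3 (0.50) followed at larger distances. Both were called higher for the knockdown, but not called with STAT5bCA (p = 0.461 and 0.737, the authors' deposited table). Vldlr itself reached at most 1.23 TPM, below the 5 TPM asked of the genes searched. Nearest to Cd36 were Ankrd2 (0.20), Ifi27l2b (0.25) and Gdf15 (0.25), each called higher for the knockdown and not called with rIGF1 or STAT5bCA. Nearest to Lipc were Slc30a10 (0.03), Hip1r (0.05) and Plpp2 (0.05), of which only Hip1r was called for the knockdown (ratio 0.647, p = 0.000349, the authors' deposited table).

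Noncoding features and neighbours within 100 kb of each member were then examined, a choice made after the data were seen. None of them was called for the knockdown or with rIGF1 around any of the 8 members. Of all features detected in either group of the STAT5bCA comparison, 1.62% were called higher. Beside that share, 3 of 16 features were called higher around Lipc, 3 of 13 around Fabp1 and 1 of 5 around Fabp4. These local totals hold features above 0 in any group, a wider rule. None was called around Cd36, Vldlr, Lpl, Slc27a2 or Slc27a5. None was called lower.

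Around Lipc the antisense feature NC_AS_C9_8080 (mm9 chromosome 9, 70762146 to 70809509, plus strand), which overlaps the start of Lipc, stood at 0.0384 TPM in Control, 0.0223 in aHepGHRkd, 0.0430 after rIGF1 and 2.07 after STAT5bCA. Only the STAT5bCA group was above 1 TPM, and its ratio to aHepGHRkd was 93.2 (p = 9.11e-127, the authors' deposited table). NC_INTER_C9_48646, centred 4.47 kb upstream of Lipc, was listed at 0 in the other groups and at 3.61 TPM with STAT5bCA (p = 4.21e-10, the authors' deposited table). NC_INTER_C9_48649, centred 38.4 kb upstream, was likewise listed at 0 elsewhere and at 0.433 TPM with STAT5bCA (p = 1.51e-10, the authors' deposited table). These features were far above their Control level, whereas Lipc itself remained below Control. The sources used here do not say whether reads were counted by strand, so those of Lipc and of its antisense feature may be mixed. NC_INTER_C9_48646 lies within the span of NC_AS_C9_8080 on the opposite strand, so they may share reads too.

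Around Fabp1, NC_INTER_C6_42485, centred 34.4 kb upstream, stood at 0.702, 0.203, 0.293 and 4.75 TPM in the same order, a ratio of 23.1 with STAT5bCA (p = 2.21e-31, the authors' deposited table). NC_INTER_C6_5249 and NC_INTER_C6_5248, centred 11.9 and 12.2 kb upstream on opposite strands, had ratios of 2.99 (p = 2.56e-06) and 2.67 (p = 4.19e-05) in the authors' deposited table. Their spans overlap, so they may share reads. The antisense feature NC_AS_C6_5250 over Fabp1 was listed at 664, 749, 645 and 837 TPM. Its ratios of 1.12, 0.800 and 1.16 in the 3 comparisons lay beside 1.12, 0.795 and 1.15 for Fabp1 (the authors' deposited table). With strand use unstated, its reads and those of Fabp1 cannot be told apart.

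Fabp4 and Fabp5 lie on the same chromosome, 188 kb apart on mm9. Fabp12, a binding protein gene centred 64.1 kb upstream of Fabp4, was listed at 0.0336, 0.0104, 0.0109 and 0.274 TPM, a ratio of 20.4 with STAT5bCA (p = 3.18e-05, the authors' deposited table). Fabp4 between them had ratios of 1.10 and 0.969 for the knockdown and STAT5bCA. The antisense feature NC_AS_C3_2145 over Fabp5 had ratios of 0.0498 (p = 1.90e-33) and 16.4 (p = 1.05e-36), next to 0.0499 and 16.4 for Fabp5 (the authors' deposited table), with the same limit on strand.

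**Figure D5:**
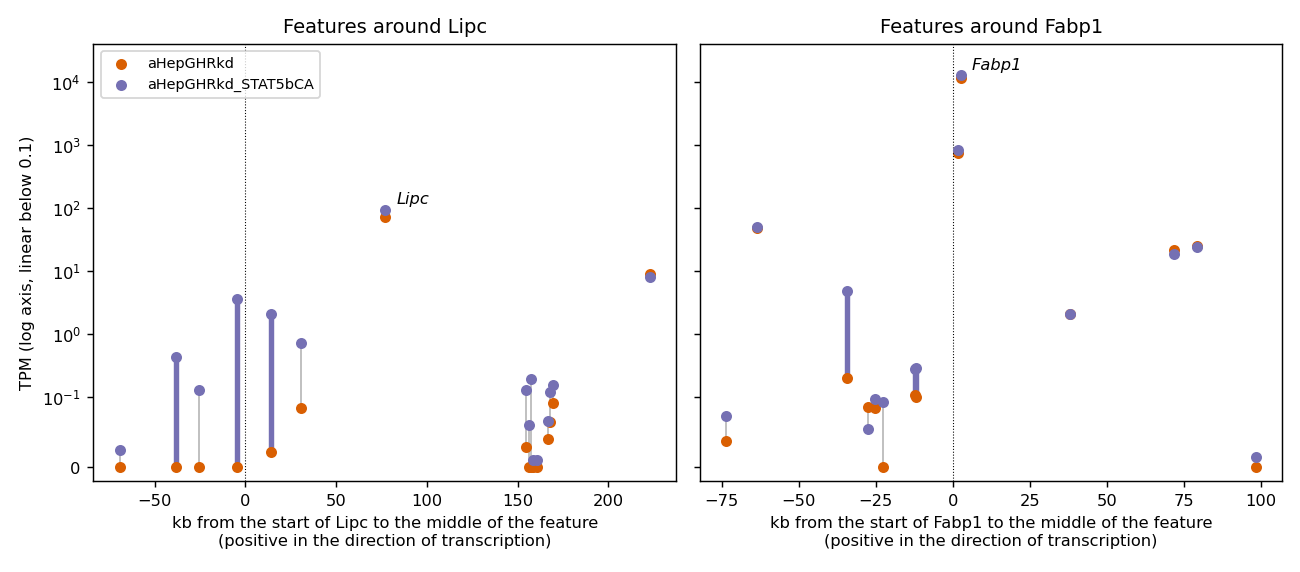
Each pair of points joined by a line is 1 detected feature within 100 kb of Lipc (left) or Fabp1 (right), at the distance of its middle from the start of that gene and at its TPM in aHepGHRkd and aHepGHRkd_STAT5bCA, on an axis that is logarithmic above 0.1 TPM. Thick lines mark the 3 features in each panel with a deposited p under 0.05, and the member itself moves little.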

How the data were processed

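Liver RNA of 24 mice was sequenced after polyA selection, per the labels. The authors used STAR, featureCounts and edgeR on mm9, per the submitters' processing notes, and their versions are not known here. The authors' deposited table gives TPM once per group. The ratio (fold) and the p-value columns were deposited with it, and the ratio is from edgeR per the file headers. The header states no adjustment of the p. It was read as Benjamini-Hochberg adjusted from the number of values equal to 1 and from ties below 1. The value 1 fills 69174 lines for aHepGHRkd, 75054 for aHepGHRkd_rIGF1 and 72384 for aHepGHRkd_STAT5bCA. These include features listed at 0 in both groups, such as Pmp2, so that count alone does not settle the reading. For aHepGHRkd over Control, the 6620 lines under 1 held 4191 distinct values. The signed fold deposited by the authors, a score that restates the ratio, was not used. edgeR takes counts per library, which were not analysed here, so depth and precision per sample are unknown.

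Of 75798 features, 75794 were read, since 4 lines were empty in the copy used. Groups came from the labels. Symbols stand in capitals and were printed in mouse form, and all 86 symbols of the members and lists were found. A feature counted as detected where either group was above 0, and in the counts around the members where any group was. No test was run here. The planned count test, replicate block and left-out replicates need values per library. Some genes of the pathway are not reported here. The members and lists were chosen with earlier results of these data known. Named genes are all members, each called list gene, and the 3 nearest patterns of each called member. Alternatives were a p of 0.01, a fold of 1.5, TPM ratios, 1 TPM added, rescaling by the coding median, and other backgrounds. Calling and distances were tested on simulated data, and the reading of the deposited table was not. All steps were run with Python 3.11.15, pandas 2.3.3 and numpy 2.4.6. Promoter windows are RefSeq, GRCm38.p6, while all other coordinates are the table's mm9.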

Additional observations from a re-analysis of the deposited data

How the results depend on the processing

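The calls on the 8 members were the same at a deposited p under 0.01 and with a fold of at least 1.5 added. Of 72 member ratios recomputed from group TPM in 3 ways, 69 kept their direction. The ratio of Vldlr for the knockdown went from 2.98 to 1.55 with 1 TPM added, and its STAT5bCA ratio from 0.577 to 0.768. The 3 that turned were all of Slc27a2, which was not called. Its ratio was 0.986 for aHepGHRkd over Control after division by the coding median, and 1.02 for aHepGHRkd_rIGF1 over aHepGHRkd both as a plain TPM ratio and with 1 TPM added. Over features at 1 TPM or more, the shares called higher and lower were 2.62% and 4.09% for the knockdown, 0.0132% and 0.0198% with rIGF1, and 3.10% and 0.728% with STAT5bCA. No paired analysis was possible because the table holds group values and no column for any single library. Leaving out replicates was not run for the same reason, so whether 1 mouse decides a value was not tested. Among coding genes within 2-fold of the level of Vldlr, the smallest fold called was 1.52 for the knockdown and 1.48 with STAT5bCA (the authors' deposited table).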
